A study of Mus musculus with 2 samples.

Results

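The genes described here are 48 genes of mitosis, the kinetochore and cytokinesis, chosen by symbol from their known function. This choice, and that of the lists compared with them, was made with earlier results of these data known. All 48 were found among the 55348 genes counted, and all 48 passed the filter used here, a mean of 1 CPM or more (CPM being reads scaled to the size of the library). RNA was sequenced from hearts of mouse embryos of strain 129sv at E13.5, in 1 library from wild-type hearts and 1 from Lmna H222P/H222P hearts. H222P is a missense allele of Lmna, the gene of lamins A and C, and both copies carry it in the mutant, so it is present in every cell and not only in heart muscle. The number, sex and pooling of hearts per library are not given in the sources used here. The wild-type library held 32669225 reads on genes and the mutant one, called H222P below, 25120790. Every difference is thus one of 2 single libraries, without replicates or p-values, and 95% intervals cover counting error only.

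Mitosis is driven by Cdk1 bound to A- and B-type cyclins. Polo and Aurora kinases then build the spindle, kinetochores attach chromosomes to it, and the spindle assembly checkpoint holds back the anaphase-promoting complex (APC/C) until all are attached. The APC/C then releases separase to part the chromatids, and a contractile ring divides the cell. Fetal heart muscle cells still divide at this stage, and so do the endocardial, mesenchymal and blood cells around them.

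The mitosis genes stood at nearly the same level in both libraries, with Mki67 as the exception. Of the 48, 47 lay within 1.5-fold of equality, 1 was above that bound in H222P and 0 were below it. Among all 14717 measured genes, 77.7% lay within 1.5-fold, 11.2% above and 11.1% below. Because all 48 are well expressed (mean CPM 28.0 to 688), the same shares were taken over the 6944 genes with a mean at least that of the lowest of them, a bound chosen after the values were seen, and were 88.1% within, 4.23% above and 7.7% below. The median log2 ratio, H222P over wild type, was 0.05 for the mitosis genes and 0.00 for all measured genes. Their ratios ran from −0.36 for Anln to 0.73 for Mki67, and the interquartile range was 0.22 on the log2 scale, against 0.53 for all measured genes and 0.42 for the genes with a mean at least that of the lowest mitosis gene.

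**Figure D1:**
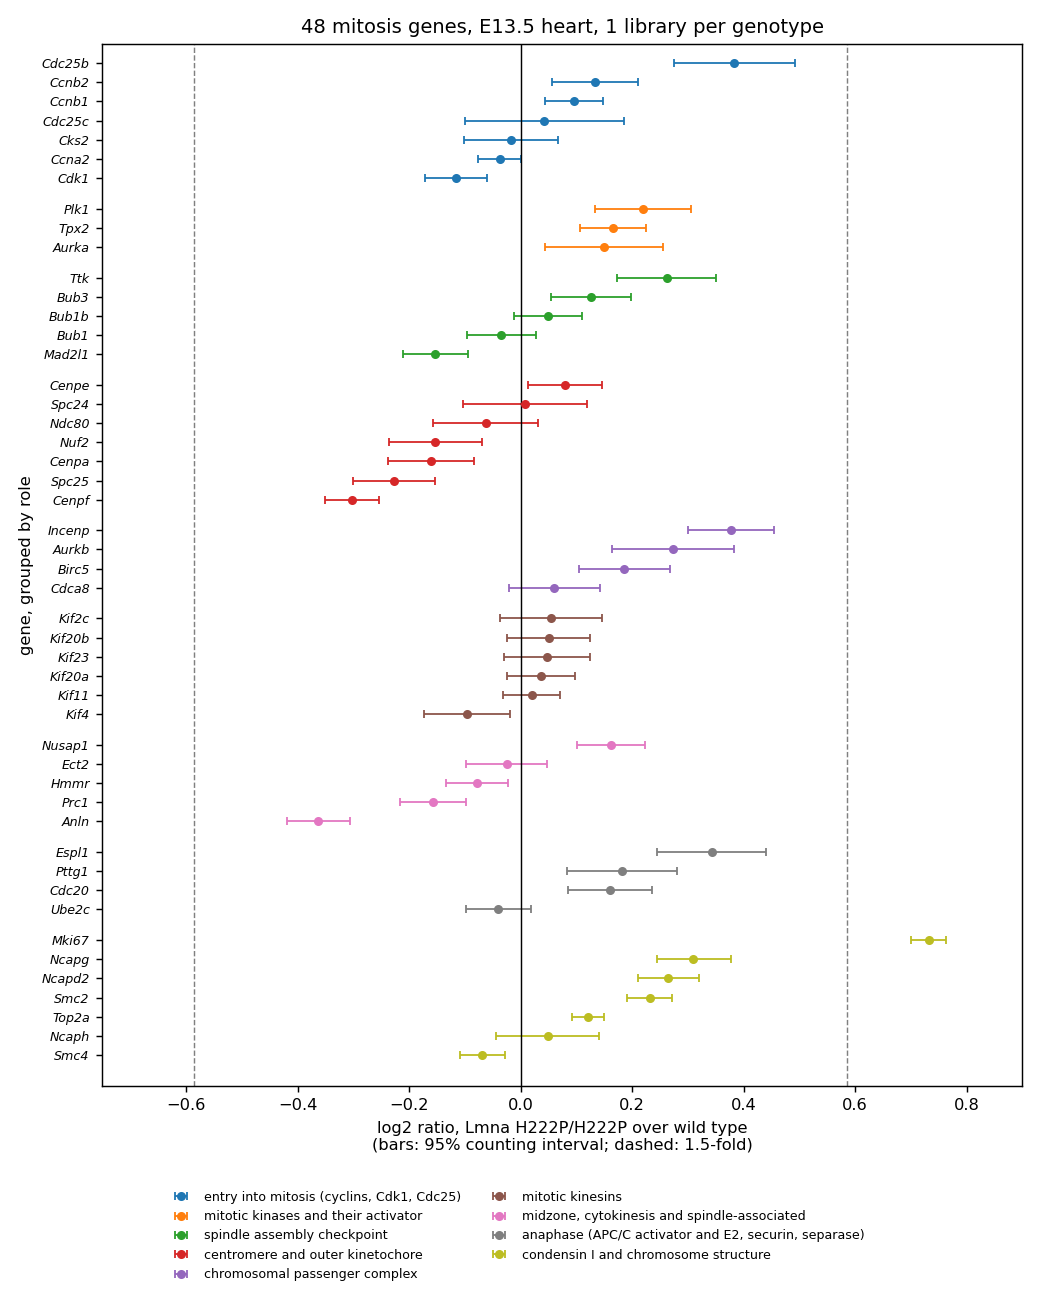
Log2 ratio of reads (Lmna H222P/H222P over wild type) for each of 48 mitosis genes, grouped by role, with points for the ratio and bars for the 95% counting interval. Mki67 at 0.73 is the 1 gene beyond the dashed 1.5-fold lines.

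Scaling set the zero of these ratios. Scaling by total reads in place of TMM factors moved the median of all measured genes by 0.14 on the log2 scale, and with it the ratios of the mitosis genes, to a median of 0.19. The split of genes at least 1.5-fold apart then went from 50.1% to 66.2% higher. Bub1, Ccna2, Cdk1, Cks2, Ect2, Hmmr, Kif4, Ndc80, Smc4 and Ube2c changed from below to above 0, so the sign of these 10 ratios depends on the scaling. Differences among the mitosis genes themselves are almost free of it.

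Summed over the 48 genes there were 219996 wild-type reads and 198616 H222P reads. These were 0.673% of wild-type reads on genes (exact binomial 95% interval 0.671 to 0.676) and 0.791% of H222P reads (0.787 to 0.794). After TMM scaling the log2 ratio of the sums was 0.09 (0.08 to 0.10). Without Mki67 it was 0.03 (0.02 to 0.04). Intervals that left out a ratio of 1 numbered 21 above and 11 below among the 48. Among all measured genes the shares were 32.6% above and 33.2% below. They were 35.3% and 41.4% among genes with a mean at least that of the lowest mitosis gene. Counts of such intervals by role, given below, are to be read beside these shares. Counts of genes or markers beyond 1.5-fold in the lists below are likewise to be read beside those of all measured genes, 11.2% higher and 11.1% lower.

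The libraries also differed in what tissue they held, as far as marker genes show it. Heart muscle markers were abundant in both, and 13 of 16 were lower in H222P by 1.5-fold or more, their summed level being 36293 CPM in wild type and 18998 CPM in H222P. Markers of red cells and their precursors (15 of 20 higher by that much) had a median log2 ratio of 3.24. They summed to 11972 and 19383 CPM, and the globin gene Hbb-y alone gave 6444 and 7815 CPM of this (0.28). The sum thus moved far less than most of these genes. Liver markers (18 of 18 higher) summed to 36.3 and 6411 CPM, with Fabp1 at 0 reads in the wild-type library. Megakaryocyte markers were higher in 9 of 9 (51.7 and 288 CPM), and endothelial (6 of 11 lower, 1228 and 817 CPM) and fibroblast, cushion or epicardial markers (6 of 11 lower, 1 higher, 5059 and 2545 CPM) were mostly lower. Macrophage markers summed to 122 and 103 CPM, with 1 of 9 higher and 1 lower. Neural markers summed to 101 and 148 CPM (6 of 9 measured higher), and lung or gut markers to 151 and 215 CPM (4 of 10 higher, 4 lower). The sum of the lung or gut markers hides opposite changes, with Barx1 at 8 and 1234 reads and Nkx2-1 at 381 and 161. The part of these cell types in the levels of the mitosis genes was not tested. In bulk tissue, fewer cells of a type and less RNA per cell cannot be told apart. Lmna had 2068 and 1865 reads (log2 ratio 0.09) and Kdm1a, the gene of LSD1, 3628 and 3549 (0.21). A missense allele need not change its transcript, so the first does not check the labels.

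Genes of mitosis share promoter elements, and they are shown here as a feature that the choice of the 48 did not use. The cell cycle genes homology region (CHR) is the binding site of the MuvB complexes, which hold these genes down in resting cells and, with B-MYB and FOXM1, switch them on in G2. The CCAAT box is bound by NF-Y. RefSeq promoters (build GRCm38.p6, the assembly of mm10) were matched for 40 of the 48. Both strands of the 250 bases before the start were searched. The CHR was taken as TTTGAA. A variant of it, counted on its own, was TTTAAA. The box bound by NF-Y was searched as CCAAT. For E2F, the sequence TTTCCCGC was used, and also the sequence TTTGGCGC, then the sequence TTTCGCGC and lastly the sequence TTTGCCGC. No 2 matches overlap in the stretches printed here. The stretches below are of the highest gene, the most abundant by mean CPM, the central mitotic kinase, an NDC80 subunit and the lowest gene. Each holds the 250 bases before the start, 5′ to 3′ on the gene's strand, with matches to any of these motifs in capitals.
Mki67 (chr7:135716380-135716629, minus strand): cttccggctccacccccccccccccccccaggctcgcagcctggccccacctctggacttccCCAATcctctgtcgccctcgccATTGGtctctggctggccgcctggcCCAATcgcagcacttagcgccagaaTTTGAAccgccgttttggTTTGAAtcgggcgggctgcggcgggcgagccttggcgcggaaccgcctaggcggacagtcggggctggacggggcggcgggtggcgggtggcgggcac
Top2a (chr11:99024190-99024439, minus strand): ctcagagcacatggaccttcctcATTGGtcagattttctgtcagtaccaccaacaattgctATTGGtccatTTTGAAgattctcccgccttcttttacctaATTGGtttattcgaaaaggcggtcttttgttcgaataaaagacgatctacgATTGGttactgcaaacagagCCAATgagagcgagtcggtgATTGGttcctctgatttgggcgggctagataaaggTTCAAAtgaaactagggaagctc
Cdk1 (chr10:69352913-69353162, minus strand): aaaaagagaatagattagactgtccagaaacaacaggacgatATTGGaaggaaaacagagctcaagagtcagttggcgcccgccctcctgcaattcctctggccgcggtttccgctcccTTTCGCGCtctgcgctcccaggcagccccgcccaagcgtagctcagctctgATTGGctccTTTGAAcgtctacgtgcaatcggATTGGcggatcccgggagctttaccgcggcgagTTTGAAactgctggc
Spc25 (chr2:69206214-69206463, minus strand): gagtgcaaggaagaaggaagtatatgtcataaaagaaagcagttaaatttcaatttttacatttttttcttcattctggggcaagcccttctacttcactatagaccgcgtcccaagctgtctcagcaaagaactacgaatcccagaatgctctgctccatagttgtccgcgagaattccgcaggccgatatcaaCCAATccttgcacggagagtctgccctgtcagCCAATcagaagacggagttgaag
Anln (chr9:22389207-22389456, minus strand): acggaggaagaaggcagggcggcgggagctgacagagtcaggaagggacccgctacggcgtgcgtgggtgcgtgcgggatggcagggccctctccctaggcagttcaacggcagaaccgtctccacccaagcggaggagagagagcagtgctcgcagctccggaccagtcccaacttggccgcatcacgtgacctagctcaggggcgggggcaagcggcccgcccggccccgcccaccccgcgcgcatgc

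In these stretches Mki67 held 2 CHR and 3 CCAAT matches, Top2a 2 and 6, and Cdk1 2 and 3 with 1 E2F match. Spc25 held 2 CCAAT matches and Anln held none. Over the 40 promoters, CCAAT was found in 30 (75%, against 35.8% of 16502 promoters of protein-coding genes) and 2 or more CCAAT matches in 20 (50% against 11.7%). CHR was found in 14 (35.0% against 14.1%), TTTAAA in 6 (15.0% against 11.0%) and an E2F sequence in 2 (5.0% against 2.46%). In 38 promoters of DNA replication genes, used as a comparison list, CHR was found in 10.5%, CCAAT in 63.2% and an E2F sequence in 21.1%.

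Most CHR matches lay within 50 bases of the start, before or after it. Those of Mki67 lay farther before it, at −116 and −98. When the window also took in the 50 bases after the start, a choice made after the values were seen, CHR was found in 29 of 40 promoters (72.5%) against 15.5% of all and 10.5% of the replication promoters. Counting matches within 50 bases of the start on either side, 26 of 40 mitosis genes (65.0%), 2 of 38 replication genes (5.26%) and 3.77% of all promoters had one. The next stretches of 26 bases show the CHR match nearest the start, in capitals, for genes of several roles. TTCAAA is the same site read from the other strand.
Ccnb2 (chr9:70421539-70421564, minus strand): tcagcggcgcggtaTTTGAAtcgcgg
Cdc20 (chr4:118437350-118437375, minus strand): taagacagttgggtTTTGAAggagcc
Plk1 (chr7:122159451-122159476, plus strand): ttcccagcgccgcgTTTGAAttcggg
Aurka (chr2:172370527-172370552, minus strand): ttaaaaggagaaccTTTGAAttgtaa
Cenpf (chr1:189688073-189688098, minus strand): gcggcggcgggcagTTTGAAtcgctc
Kif23 (chr9:61946786-61946811, minus strand): cgctgattggcctgTTTGAAatgcgc
Prc1 (chr7:80294432-80294457, plus strand): cgcctctggctcggTTTGAAttccgc
Ncapg (chr5:45669881-45669906, plus strand): tcccgcgatagttgTTTGAAaactct
Anln (chr9:22389174-22389199, minus strand): ccggggcgctgaaaTTCAAAttttga

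Of these 9 stretches, 8 show TTTGAA on the gene's strand, and the match in capitals for Anln is on the other. The printed stretches overstate this lean. Over all 28 genes with a match that fits such a stretch, 19 had it on the gene's strand. Anln has a further match at 28 bases after the start, on the gene's strand, which the end of its stretch cuts short. The 29 genes with a CHR in the window had a median log2 ratio of 0.05 and spanned both ends of the range, Anln at −0.36 and Mki67 at 0.73. The 11 without had a median of 0.08 (−0.15 to 0.38). A match is a description of letters and not a shown binding site. For Kif2c the RefSeq start lay 3867 bases from that of its principal GENCODE transcript, and for Kif4 328 bases. Their windows may miss the promoter in use. These were the 2 genes with a distance over 200 bases.

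**Figure D2:**
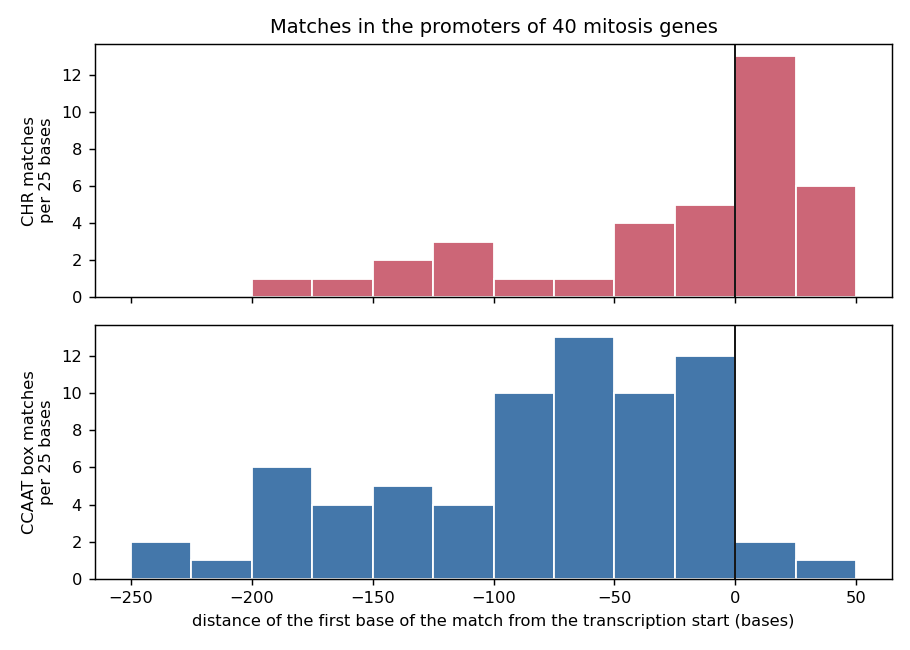
Number of CHR (top) and CCAAT box (bottom) matches in 25-base bins, by distance in bases of the first matched base from the transcription start (line at 0), over the promoters of 40 mitosis genes. CHR matches gather around the start, where 26 of 40 genes have one within 50 bases, and CCAAT boxes lie mostly before it.

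The 7 genes of mitotic entry had nearly the same summed level in both libraries (log2 ratio of summed reads 0.02, −0.01 to 0.04), with 0 of 7 beyond 1.5-fold and a median of 0.04. Cyclin A2 (Ccna2), which acts in S phase and at mitotic entry, had 11705 reads in wild type and 9675 in H222P (376 and 367 CPM), a log2 ratio of −0.04 (95% interval −0.08 to 0.00). Cdk1, the kinase itself, had 5842 and 4575 reads (188 and 173 CPM) and a ratio of −0.12 (−0.17 to −0.06).
The B-type cyclins leaned the other way by less than 1.1-fold. Ccnb1 had 6204 and 5626 reads (log2 ratio 0.10, 0.04 to 0.15) and Ccnb2 2822 and 2625 (0.13, 0.06 to 0.21). Ccnb1 has processed pseudogenes that match it closely, Ccnb1-ps at 99.2% identity over 1287 bases with 315 and 264 reads of its own, so some of its reads may be lost or misplaced. Cks2, the small subunit that docks on Cdk1, had 2536 and 2126 reads (−0.02, −0.10 to 0.07) and has such copies too. The phosphatases that activate Cdk1 differed. Cdc25b, which starts the activation, had 1328 and 1470 reads (42.7 and 55.7 CPM), 1.30-fold higher in H222P (1.21 to 1.41). Cdc25c had the fewest reads of the 48 genes, 857 and 749 (0.04, −0.10 to 0.19), and the widest interval of the 48.

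The list of 27 other genes that control mitotic entry or the mitotic gene programme had a median log2 ratio of −0.01, with 1 beyond 1.5-fold on the higher side and 0 on the lower. The 1 was E2f4, a repressor E2F of the DREAM complex that is also needed for red cell formation in fetal mice, with 985 and 1515 reads (0.86, 0.74 to 0.98). Red cell markers were higher in the same library, and their part in this value was not tested. Rbbp4, a MuvB subunit and the most abundant of the list, had 14877 and 11407 reads (−0.15), and Cdkn1a, the Cdk inhibitor p21, was lowest with 476 and 304 (−0.41, −0.62 to −0.20). Of the activators that act through the CHR, picked out after their values were seen, Foxm1 had 1771 and 1519 reads (0.02, −0.08 to 0.12) and Mybl2, the gene of B-MYB, 628 and 796 (0.58, 0.43 to 0.73).

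The mitotic kinases and the activator of Aurora A were slightly higher in the H222P library, all 3 with intervals above a ratio of 1 and none beyond 1.5-fold. Plk1, the polo kinase, had 2209 and 2181 reads (71.0 and 82.7 CPM, log2 ratio 0.22, 0.13 to 0.30). Aurka, of the spindle poles, had 1502 and 1413 reads (0.15, 0.04 to 0.25). Tpx2, which binds and activates Aurora A on spindle microtubules, had 4638 and 4414 (0.17, 0.11 to 0.23). By total reads these 3 had a median of 0.31.

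Checkpoint genes did not move as one. Their summed log2 ratio was 0.01 (−0.01 to 0.04), but single genes ran from −0.15 to 0.26. Ttk, the gene of the kinase Mps1 that starts the signal at unattached kinetochores, had 2030 and 2065 reads (65.3 and 78.3 CPM) and was 1.20-fold higher (1.13 to 1.28). Mad2l1, of the Mad2 protein that inhibits Cdc20, had 5399 and 4120 reads (174 and 156 CPM) and was 1.11-fold lower (1.07 to 1.16). Its partners lay between these ends. Bub3 had 3221 and 2983 reads (0.13, 0.05 to 0.20), the kinase gene Bub1 4667 and 3865 (−0.03, −0.10 to 0.03), and Bub1b, of BubR1, 4731 and 4154 (0.05, −0.01 to 0.11).

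Centromere and outer kinetochore genes were slightly lower in the H222P library as a sum. The log2 ratio of their summed reads was −0.16 (−0.18 to −0.13), or −0.09 (−0.12 to −0.05) without Cenpf, a choice made after the values were seen. The median of the 7 was −0.15, or −0.01 by total reads. Cenpf, a very large kinetochore and nuclear matrix protein of G2 and M, had 8478 and 5833 reads (273 and 221 CPM) and was 1.23-fold lower (1.19 to 1.28). Cenpa, the histone H3 variant that marks centromeres, had 3198 and 2427 reads (−0.16, −0.24 to −0.08). Cenpe, the kinesin that carries chromosomes to the metaphase plate, was on the other side with 3943 and 3536 reads (0.08, 0.01 to 0.15).
The 4 subunits of the NDC80 complex, the main microtubule anchor, had ratios below 0 for 3 of 4. Spc25 had 3620 and 2624 reads (−0.23, −0.30 to −0.15), Nuf2 2692 and 2054 (−0.15, −0.24 to −0.07) and Ndc80 2059 and 1673 (−0.06, −0.16 to 0.03). Spc24 had 1438 and 1227 (0.01, −0.10 to 0.12), so Spc25 over Spc24, a quotient that no scaling moves, was 2.52 in wild type and 2.14 in H222P.

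A further 45 centromere and kinetochore genes had a median of 0.07, with 2 higher by 1.5-fold or more and 0 lower. Among all measured genes 11.2% were higher and 11.1% lower by that much. Zwint, the most abundant, had 8990 and 6522 reads (−0.23), Cenph, of the inner kinetochore, was highest with 602 and 793 (0.63, 0.48 to 0.79), and Bod1 lowest with 2229 and 1465 (−0.37). Cenpo, named here because the count is small, was the other gene beyond 1.5-fold with 276 and 355 reads (0.60, 0.37 to 0.83).

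Chromosomal passenger genes all had ratios above 0 (log2 ratio of summed reads 0.22, 0.18 to 0.27). Incenp, the scaffold of the complex, had 2602 and 2868 reads (83.7 and 109 CPM) and was 1.30-fold higher (1.23 to 1.37). Aurkb, its kinase, had 1350 and 1384 reads (0.27, 0.16 to 0.38). Birc5, or survivin, had 2495 and 2408 (0.19, 0.10 to 0.27) and Cdca8, or borealin, 2599 and 2299 (0.06, −0.02 to 0.14). None of the 4 reached 1.5-fold.

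Mitotic kinesins lay close to equality, from −0.10 to 0.06 on the log2 scale. Kif11, the motor that pushes the spindle poles apart, had 6611 and 5686 reads (213 and 215 CPM, 0.02, −0.03 to 0.07). Kif23, of the central spindle, had 2900 and 2542 (0.05, −0.03 to 0.12), and Kif2c, which takes microtubules apart at centromeres, 2068 and 1823 (0.06, −0.04 to 0.15). These intervals all include a ratio of 1. Kif20a, which brings passenger proteins to the midzone, had 4746 and 4131 reads (0.04, −0.02 to 0.10) and its relative Kif20b 3168 and 2783 (0.05, −0.02 to 0.12). Kif4, a chromosome-arm motor, was the 1 kinesin with an interval off 1, 3074 and 2440 reads (−0.10, −0.17 to −0.02). Kif20a and Kif4 had the largest shares of reads on the opposite strand of the 48 genes, 12% and 7.61%. Their principal transcripts overlap Cdc23 and Pdzd11 there, and those reads are left out of the counts given here.

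Genes of the midzone, the contractile ring and the spindle fibres gave the lowest single value. Anln, the gene of anillin, which ties actin, myosin and septins together in the ring, had 6408 and 4228 reads (206 and 160 CPM) and was 1.29-fold lower in H222P (1.24 to 1.34). Prc1, which bundles midzone microtubules, had 5230 and 3979 reads (−0.16, −0.22 to −0.10), and Ect2, the exchange factor that turns on RhoA for the ring, 3392 and 2829 (−0.02, −0.10 to 0.05). Nusap1, a microtubule bundler, was higher with 4518 and 4288 (0.16, 0.10 to 0.22), and Hmmr 5774 and 4640 (−0.08, −0.13 to −0.02). The log2 ratio of the group's summed reads was −0.11, or −0.03 (−0.06 to 0.00) without Anln, again chosen after the values were seen. The group's median was −0.08 and changed sign to 0.06 by total reads.

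Of 19 other cytokinesis genes with a count, 1 was lower by 1.5-fold or more and 0 higher (median −0.10, or 0.05 by total reads). Sept6, a septin of the ring, had 5125 and 1970 reads (−1.14, −1.22 to −1.07), Cit, or citron kinase, was highest with 715 and 896 (0.56, 0.42 to 0.71), and the abundant Myh10, the nonmuscle myosin IIB heavy chain, had 21717 and 18384 (0.00, −0.03 to 0.03). Septins and nonmuscle myosin also serve non-dividing cells. Among 40 other spindle and centrosome genes 3 were higher by 1.5-fold or more and 0 lower (median 0.20), beside 11.2% and 11.1% of all measured genes. Depdc1b had 266 and 447 reads (0.98, 0.76 to 1.21), Haus8, of the augmin complex, 2270 and 1285 (−0.58), and Tubb5, a beta-tubulin, 42586 and 37312 (0.05). The other genes beyond 1.5-fold, named because they are few, were Kif24 with 281 and 405 reads (0.76) and the centriole gene Sass6 with 770 and 1007 (0.62).

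Anaphase genes had small ratios, 3 of 4 with intervals above 1. Espl1, the gene of separase, the protease that cuts cohesin, had 1647 and 1772 reads (53.0 and 67.2 CPM) and was 1.27-fold higher (1.19 to 1.36). Pttg1, of securin, which holds separase inactive, had 1711 and 1647 (0.18, 0.08 to 0.28). Cdc20, the APC/C activator that the checkpoint blocks, had 2948 and 2794 (0.16, 0.08 to 0.23), and Ube2c, the ubiquitin-conjugating enzyme of the APC/C, 5327 and 4396 (−0.04, −0.10 to 0.02).
The 17 measured APC/C subunits, inhibitors and partner enzymes had a median of 0.02, with 0 higher and 1 lower by 1.5-fold. Anapc13 had 1579 and 881 reads (−0.60, −0.73 to −0.48) and was within 1.5-fold by total reads, Fbxo5, the inhibitor Emi1, 1436 and 1642 (0.43, 0.33 to 0.53) and the abundant subunit Anapc5 8487 and 7474 (0.05).

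Condensin I and chromosome structure genes had a log2 ratio of summed reads of 0.28 (0.26 to 0.29), and 5 of 7 had intervals above 1. Without Mki67, a choice made after the values were seen, the ratio of the sums was 0.13 (0.11 to 0.15), below that of the passenger complex. Mki67, the gene of Ki-67, which coats mitotic chromosomes and is used as a marker of cycling cells, had 13880 and 19555 reads (446 and 741 CPM). It was 1.66-fold higher in H222P (1.62 to 1.70), and 8.60% of all measured genes had a ratio as high or higher. Among the 6944 genes with a mean at least that of the lowest mitosis gene, 4.23% were 1.5-fold higher or more. Top2a, the topoisomerase that untangles sister chromatids, had 20491 and 18899 reads (659 and 716 CPM, 0.12, 0.09 to 0.15). It was the most abundant of the 48 by mean CPM over both libraries, but below Mki67 in H222P. Mki67 over Top2a went from 0.677 to 1.03, and Mki67 over Cenpf, another large transcript of G2, from 1.64 to 3.35, both independent of scaling. The pseudogene Gm44521 matches Mki67 over 216 bases and held 1 and 7 reads.
Condensin I compacts the chromosome arms, and its subunits split. Ncapg had 3584 and 3770 reads (0.31, 0.24 to 0.38), Ncapd2 5358 and 5463 (0.27, 0.21 to 0.32) and the ATPase gene Smc2 9780 and 9744 (0.23, 0.19 to 0.27). Smc4, the partner of Smc2, had 11172 and 9039 (−0.07, −0.11 to −0.03) and the kleisin gene Ncaph 2044 and 1794 (0.05, −0.04 to 0.14). Smc2 over Smc4 was 0.875 in wild type and 1.08 in H222P. Ncapg overlaps Lcorl on the opposite strand, which held 5.48% of the reads at the gene, and its ratio was the one that moved most, by 0.06, when strands were not told apart.
Of 17 genes of condensin II, cohesin and its regulators, 0 lay beyond 1.5-fold and the median was 0.15. Rad21, the cohesin kleisin, had 11936 and 9490 reads (−0.09), Wapl, which releases cohesin, 3741 and 4344 (0.45, 0.39 to 0.52) and the acetyltransferase gene Esco1 1200 and 932 (−0.13).

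**Figure D3:**
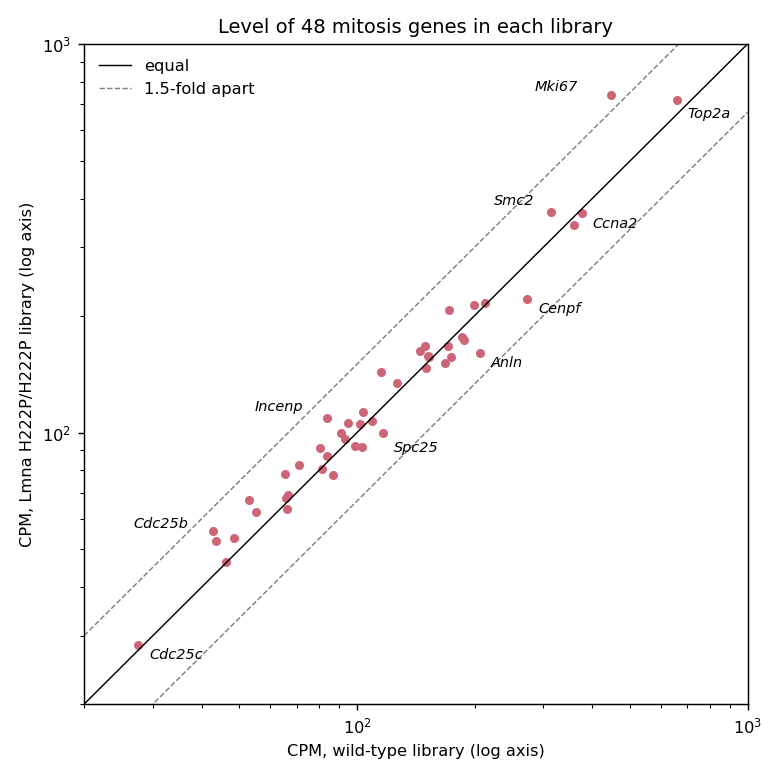
Level of each of 48 mitosis genes in CPM, wild type on the x axis and Lmna H222P/H222P on the y axis, both log axes, with the line of equality and dashed lines at 1.5-fold. The points follow the line from Cdc25c (27.6 and 28.4 CPM) to Top2a (659 and 716 CPM), and Mki67 (446 and 741 CPM) lies above the upper dashed line.

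Levels between genes were compared as CPM per kb of the principal transcript. Reads were counted per gene and not per transcript, so the order depends on the length chosen. Ube2c has 967 bases in its principal transcript and 2600 in all its exons merged, and Cks2 has 692 in both. Ube2c had the highest level per length, 177 in wild type and 172 in H222P, followed in wild type by Ccna2 (127 and 124), Top2a (126 and 137) and Cks2 (118 and 116). Espl1 had the lowest, 7.95 and 10.1. The order was nearly the same in both libraries (Spearman's rho 0.97 across 48 genes, a description, since genes share both libraries). Mki67 went from place 20 (44.4) to place 9 (73.7) and Anln from place 19 (44.7) to place 29 (34.8). With 1 library a genotype, whether neighbours in this order differ cannot be said.

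**Figure D4:**
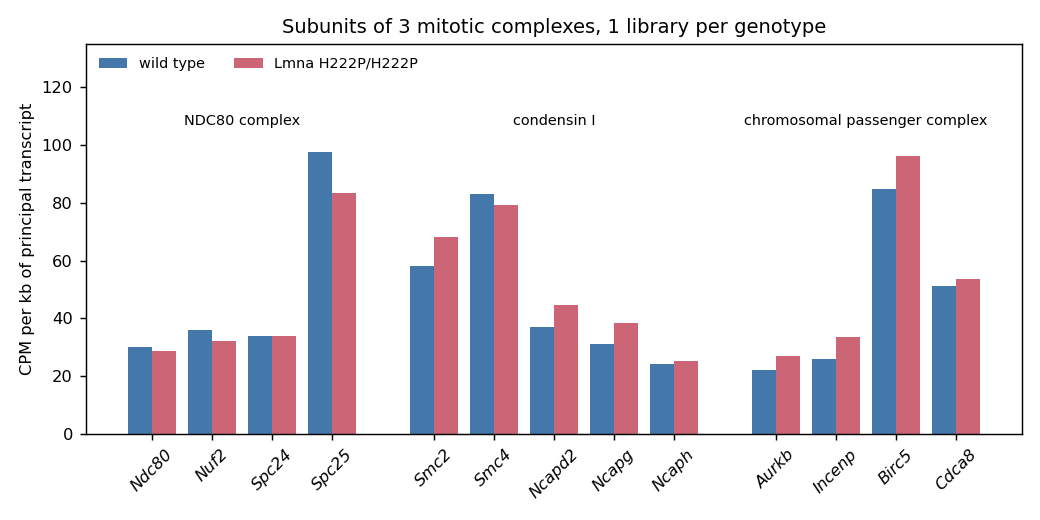
CPM per kb of principal transcript for the subunits of the NDC80 complex, condensin I and the chromosomal passenger complex, as 1 bar per library. Spc25, Smc4 and Birc5 are the highest subunit of their complexes in both libraries, at 97.5, 83.2 and 84.7 in wild type.

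Per kb of the principal transcript, subunits of 1 complex did not stand at equal levels in either library. Spc25 stood 3.24 times as high as Ndc80 in wild type and 2.89 times in H222P, while Nuf2 (1.20 and 1.12) and Spc24 (1.13 and 1.18) were close to it. In condensin I, Smc4 was 3.41 and 3.15 times and Smc2 2.39 and 2.71 times Ncaph. In the passenger complex, Birc5 was 3.81 and 3.58 times and Cdca8 2.31 and 1.99 times Aurkb, with Incenp the nearest to it. These multiples and this order rest on the length chosen. Birc5 has 947 bases in its principal transcript and 3402 in its merged exons, Cdca8 1626 and 5177, and Aurkb 1950 and 2946. Multiples by merged exon length were not computed. Across the 48 genes, as descriptions over genes that share both libraries, the log2 ratio gave Pearson's r 0.08 and Spearman's rho −0.01 with the length of the principal transcript. With the mean level it gave r −0.04 and rho −0.24, and with the merged exon length r −0.12 and rho −0.21. Mki67 weighed on these values, and over the other 47 genes they were r −0.08 and rho −0.07 with the principal transcript, r −0.27 and rho −0.32 with the mean level, and r −0.26 and rho −0.29 with the merged exon length.

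DNA replication genes had a higher median ratio than the mitosis genes, and more of them had ratios above 0. Of 47, 45 had log2 ratios above 0 and the median was 0.34, where 31 of the 48 mitosis genes and 50.3% of all measured genes lay above 0. By total reads 41 of the 48 mitosis genes lay above 0, so the contrast in sign depends on the scaling. Past the 1.5-fold bound were 5 of 47 on the higher side, a share near the 11.2% of all measured genes. Among genes with a mean at least that of the lowest mitosis gene the share was smaller, 4.23%. The means of the replication genes began at 11.8 CPM, so neither set matches them in level. By total reads 11 of 47 were higher, beside 2236 of 14721 genes, and 0 were lower under either scaling. Ccne1, of cyclin E1, was highest with 906 and 1554 reads (1.02, 0.90 to 1.14), Rrm1, a ribonucleotide reductase subunit and the most abundant, had 11749 and 12723 (0.35), and Gins3 was lowest with 636 and 486 (−0.15). The distance between the medians does not depend on scaling. With 1 library per genotype the difference between the lists was not tested.

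**Figure D5:**
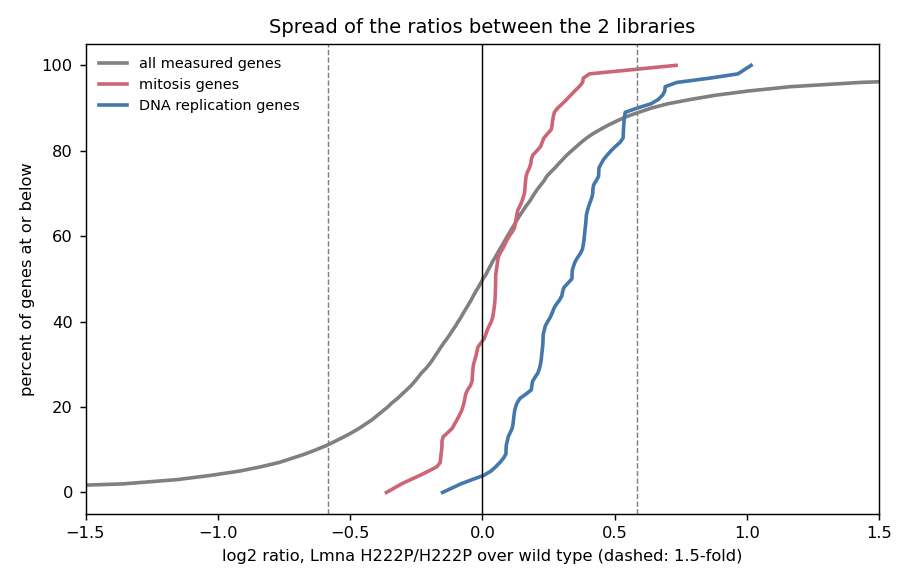
Percent of genes (y axis) at or below each log2 ratio, Lmna H222P/H222P over wild type (x axis), for all 14717 measured genes, 48 mitosis genes and 47 DNA replication genes. The mitosis curve is steep around its median of 0.05, and the replication curve lies to its right, around 0.34.

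Paralogues that serve germ cells or act outside mitosis were mostly low. Of 18, 10 were measured, with 1 higher by 1.5-fold or more and 2 lower. Ccna1 had 9 and 14 reads, Aurkc 1 and 2, and Ccnb3 40 and 22 (−0.62, −1.45 to 0.16), far below Ccna2 and Ccnb1. These 3 were picked out as the counterparts of the genes above after their values were seen. Top2b, the topoisomerase that non-dividing cells use as well, had 10691 and 9470 reads (0.06, 0.02 to 0.10), Birc6 4674 and 4473 (0.17), and the meiotic cohesin gene Rec8 255 and 108 (−1.0, −1.34 to −0.67). The 1 higher gene was Stag3, another meiotic cohesin gene, with 53 and 153 reads (1.76, 1.31 to 2.25).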

How the data were processed

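The deposited files hold raw counts of reads per gene, not normalized, 1 file per library, with 3 count columns (unstranded and each strand) and 4 summary rows left out of library sizes. Build mm10 and the tools DESeq, HTSeq and STAR are listed in the submitters' processing notes, with no version. The role of each and the annotation used are not given in the sources available. The reverse-strand column, 19.3 and 20.5 times the other strand, was used. Reads on genes were 82.8% and 82.0% of all reads; 5.37% and 6.09% mapped to several places and were not counted.

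Scaling used TMM factors (edgeR 4.0.16, R 4.3.3; 0.952 for wild type, 1.05 for H222P). Log2 ratios used a prior count of 0.5, with exact Clopper-Pearson 95% intervals of the share of reads (scipy 1.17.1, Python 3.11.15). Intervals cover counting error only, and PCR copies of a molecule cannot be told from separate ones. At these depths 3 reads equal 0.0965 and 0.114 CPM. With 1 library a group no test was possible, so genes were described by a fold of 1.5. The ratio step was tested on simulated counts.

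Coordinates, lengths and overlaps come from GENCODE M21 (GRCm38), near-identical copies (at least 95% identity over 200 bases) from blastn 2.17.0, and promoters from RefSeq (GRCm38.p6), taking the start nearest to that of the principal transcript. The genes and lists were chosen with earlier results of these data known. Every mitosis gene could be named. Of other lists, the rule named the most abundant gene and the highest and lowest ratio among genes averaging 5 CPM or more. The cytokinesis list also held 5 newer septin symbols, not used here. Alternatives were total counts, size factors from DESeq2 1.42.0, TMM on other gene sets, other filters, prior count, strand, depth and folds.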

Additional observations from a re-analysis of the deposited data

How the results depend on the processing

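No paired analysis was possible because each genotype has 1 library. Libraries could not be left out for the same reason. The count of mitosis genes at least 1.5-fold higher (1) and lower (0) was the same under 10 alternatives of scaling, filter, prior count, strand and depth. With a fold of 2 the counts were 0 higher and 0 lower, and with a bound narrower than 1.5-fold they were 4 and 1, by construction. Total-count scaling moved the median log2 ratio from 0.05 to 0.19 and the ratio of summed reads from 0.09 to 0.23, and the mean in place of the median was 0.068. Among alternatives chosen after seeing the data, leaving out Mki67 gave 0 genes higher and a summed ratio of 0.034. Leaving out the 5 genes with near-identical copies, Mki67 among them, gave 0 and 0.039, and leaving out the 5 with another gene on the opposite strand of their principal transcript gave a summed ratio of 0.10. Recomputed ratios of single mitosis genes stayed within their counting interval in 432 cases and moved out of it in 48, all under total counts except that of Ccna2 with strands not told apart (−0.04 against 0.00). Spc24 also changed sign there and with the deeper library thinned, within its interval. With 1 library per genotype, variation between hearts is the limit, and it was not measured.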
